A study of Mus musculus with 39 samples.

Results

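The Kv1 genes are described here in mouse dorsal root ganglia (DRG), the ganglia that hold the cell bodies of sensory neurons: the channel subunit genes *Kcna1* (Kv1.1), *Kcna2* (Kv1.2), *Kcna4* (Kv1.4) and *Kcna6* (Kv1.6), and *Kcnab1* and *Kcnab2*, which encode the cytoplasmic beta subunits Kvbeta1 and Kvbeta2. Every probe set annotated to exactly 1 of these 6 genes was taken, which gave 17 probe sets among the 45037 tested and 6 genes among 18193. Newborn (p0) mice, labelled 129/C57Bl6 and all carrying the TrkCGFP transgene, in which regulatory sequence of the neurotrophin receptor TrkC drives GFP, were sorted by fluorescence into GFPon (TrkC+) and GFPoff (TrkC-) DRG cells. The pooled lumbar (L1 to L6) cells came from NT3-/-::Bax-/- mice (NT3Bax), which lack the neurotrophin NT3 and the cell death gene *Bax*, from Bax-/- mice, from MlcNT3 mice, which overexpress NT3 from a skeletal muscle myosin light chain promoter, and from wild-type mice, with 2 arrays per genotype and sort and about 350 cells per array. Wild-type p0 cells of L5 and of L1 were sorted in the same way at 100 cells per array, with 3 arrays per group, except for the L1 TrkC+ group with 2. Whole adult DRG of L5 and L1 came from wild-type mice kept with a running wheel for 5 weeks or without one, with 3 arrays each. The titles of these samples carry a TrkC sign, although no sort is given for them. Each adult L1 title carries TrkC+ and each adult L5 title TrkC-, so the sign cannot be separated from the level. The strain is given as 129/C57Bl6 in the labels and as C57Bl6 in the methods.

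Kv1 alpha subunits assemble, alike or mixed, into voltage-gated potassium channels that open close to the resting potential and hold back repetitive firing. In myelinated axons Kv1.1 and Kv1.2 lie beside the nodes of Ranvier, at the juxtaparanodes, where they are held by Caspr2 (*Cntnap2*) and TAG-1 (*Cntn2*), while Kv1.4 gives fast-inactivating A-type currents and is known from small-diameter sensory neurons. Kvbeta1 speeds the inactivation of Kv1 channels and Kvbeta2 takes part in their transport to the axon. Large proprioceptive neurons, which innervate muscle and express TrkC, are among the neurons that carry fast, myelinated axons.

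Values are background-corrected, normalized intensities (robust multi-array average, RMA), which order samples for 1 probe set but not different probe sets or genes. Array medians lay between 6.02 and 6.18 on the log2 scale, and replicate arrays correlated with r between 0.972 (NT3Bax TrkC-) and 0.998. The sort was checked by marker genes: in wild-type p0 cells 4 of 5 measured proprioceptor markers were higher in TrkC+ than in TrkC- cells, such as *Pvalb* by 7.02 and *Runx3* by 5.63 on the log2 scale, and 5 of 7 nociceptor markers were lower, where 5.12% of all probe sets were called higher and 3.83% lower. GFP does not mark every TrkC cell, and the TrkC- cells hold other neurons, some TrkC cells and non-neuronal cells. Levels of *Ntf3* and *Bax*, the deleted genes, were not analysed here. Each gene is led by its brightest probe set over all 39 arrays. Differences are limma log2 differences with their standard error (SE), fitted across all 45037 probe sets, and a probe set was called when its Benjamini-Hochberg adjusted p was under 0.05. Whether replicate arrays came from separate mice is not given in the sources used here, so the p-values measure the spread between arrays, which may be technical.

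In wild-type p0 mice 3 of the 4 *Kcna1* probe sets and 1 of the 4 *Kcna2* probe sets were called higher in TrkC+ than in TrkC- cells. The leading *Kcna1* probe set (1455785_at) read 4025 and 4266 in TrkC+ cells, against 850 and 1015 in TrkC- cells. The arrays of the sorts did not overlap, and the difference was 2.16 ± 0.43 (SE), or 4.46-fold, with a limma adjusted p of 0.00744. The other *Kcna1* probe sets that were above the dimmest range, 1417416_at and 1437230_at, differed by 2.52 and 2.59. In bulk samples such as these, fewer cells of a type and less RNA per cell cannot be told apart. Altogether 4 of the 17 Kv1 probe sets were called higher and 0 lower in wild-type TrkC+ cells, against that background of 5.12% higher and 3.83% lower. The fourth call was *Kcna2* probe set 1439872_at, with 323 and 289 in TrkC+ cells, against 173 and 148 in TrkC- cells (0.93 ± 0.22, adjusted p = 0.0169).

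The remaining Kv1 probe sets did not pass the test in this sort, and they did not lean one way. The leading *Kcna2* probe set (1440759_at) read 3110 and 3230 in TrkC+ cells, against 1793 and 2097 in TrkC- cells (0.71 ± 0.22, adjusted p = 0.0744). *Kcnab1* (1448468_a_at) read 2379 and 2408 in TrkC+ cells, against 1113 and 1257 in TrkC- cells (1.02 ± 0.36, adjusted p = 0.114). *Kcna4* (1438613_at), the A-type subunit, ran the other way, with 62.0 and 58.4 in TrkC+ cells, against 111 and 115 in TrkC- cells (-0.90 ± 0.38, adjusted p = 0.195). None of these 3 pairs of groups overlapped, and with only these wild-type arrays in the fit *Kcna2*, *Kcnab1* and *Kcna4* were called (adjusted p = 0.0129, 0.00209 and 0.00303). *Kcna6* (1456954_at) and *Kcnab2* (1416956_at) overlapped between the sorts, and their differences had 95% intervals of -0.58 to 0.32 and -0.59 to 0.35. The median over the 17 probe sets was 0.05, beside -0.07 over all probe sets.

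The same sort was repeated in the other genotypes. In NT3Bax mice 1 Kv1 probe set was higher in TrkC+ cells (*Kcna1* 1437230_at, 1.35 ± 0.34) and 1 was lower (*Kcna4* 1438613_at, -1.39 ± 0.38), where 10.4% of all probe sets were called higher and 8.94% lower. This *Kcna4* difference was -0.81 (adjusted p = 0.193) without NT3Bax TrkC+ replicate 2 and -0.86 (adjusted p = 0.196) without NT3Bax TrkC- replicate 1, and it was not called with only the groups compared in the fit (adjusted p = 0.239). In Bax mice 3 were higher, each of *Kcna1* (1.97 to 2.55), and 0 lower (background 4.05% higher and 3.77% lower). In MlcNT3 mice 5 were higher and 2 lower (background 4.18% higher and 5.84% lower): the same 3 *Kcna1* probe sets (1.83 to 2.47), *Kcna2* 1439872_at (1.04) and *Kcna6* 1421568_at (0.80) were higher, and both *Kcna4* probe sets (-2.08 and -1.55) were lower. The direction of *Kcna1* 1455785_at and of *Kcna4* 1438613_at was therefore the same in each genotype, although neither was called in each. The *Kcna1* call in wild-type mice was lost when 1 array was left out (adjusted p = 0.0513, 0.0626 or 0.0726 for WT TrkC+ replicate 1, WT TrkC+ replicate 2 or WT TrkC- replicate 1), while *Kcna1* 1437230_at was called in each genotype. In Bax mice the leading call was lost without Bax TrkC- replicate 2 (0.0678) and with only the groups compared in the fit (0.0754), and in MlcNT3 mice it was lost without any 1 of the 4 MlcNT3 arrays (0.0533 to 0.147), while *Kcna4* 1438613_at was not called there without MlcNT3 TrkC+ replicate 2 or TrkC- replicate 1 (0.0582 and 0.0573).

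**Figure D1:**
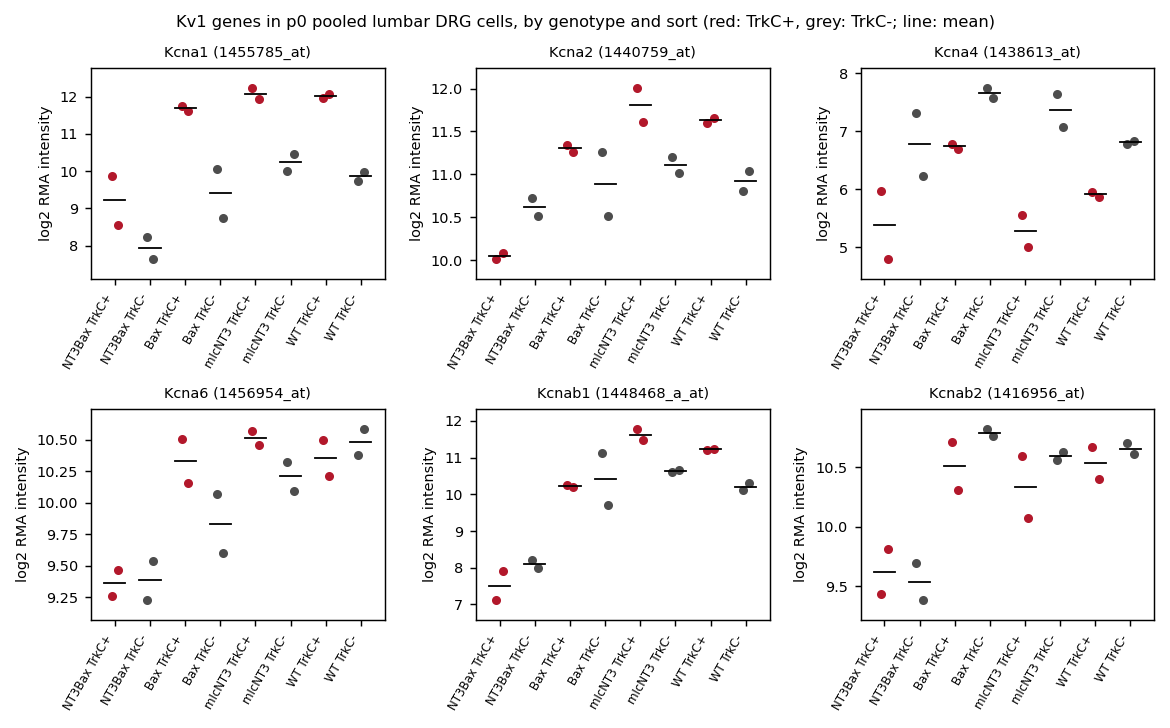
Normalized log2 intensity of the leading probe set of each Kv1 gene in pooled lumbar p0 cells, with genotypes side by side and TrkC+ (red) left of TrkC- (grey) cells; each point is 1 array and each line a group mean of 2 arrays. The NT3Bax TrkC+ arrays of Kcna1, Kcna2, Kcna6, Kcnab1 and Kcnab2 lie below every other TrkC+ array, and Kcnab1 is low in both NT3Bax sorts.

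Loss of NT3 in cells spared from death was addressed by setting NT3Bax cells against Bax cells, both of which lack *Bax*. In TrkC+ cells 9 of the 17 Kv1 probe sets were lower in NT3Bax mice and 0 were higher, where 9.17% of all probe sets were called lower and 9.05% higher. The leading probe set of each of the 6 genes was among the 9, and the median over the 17 was -0.89, beside 0.01 over all probe sets. *Kcnab1* and *Kcna1* differed most, and *Kcna6* and *Kcnab2* least.

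The beta subunit *Kcnab1* read 140 and 239 in NT3Bax TrkC+ cells, against 1213 and 1184 in Bax TrkC+ cells. Both NT3Bax arrays were far below both Bax arrays, by -2.71 ± 0.36 or 6.56-fold (limma adjusted p = 0.000329). Its second probe set, 1454043_a_at, is dim and read 13.0 and 20.0 in NT3Bax cells, against 45.5 and 30.4 in Bax cells (-1.21 ± 0.44, adjusted p = 0.0832). *Kcna1* read 943 and 376 in NT3Bax TrkC+ cells, against 3461 and 3120 in Bax TrkC+ cells. The groups were apart although the NT3Bax arrays differed from each other more than the Bax arrays did, and the difference was -2.46 ± 0.43 or 5.52-fold (adjusted p = 0.00207). *Kcna1* 1417416_at and 1437230_at were lower by 3.90-fold and 5.65-fold.

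*Kcna2*, which often shares channels with *Kcna1*, read 1033 and 1083 in NT3Bax TrkC+ cells, against 2597 and 2454 in Bax TrkC+ cells. The replicates were close, and the groups differed by -1.25 ± 0.22 or 2.39-fold (adjusted p = 0.00223). *Kcna6* read 613 and 708 in NT3Bax cells, against 1452 and 1139 in Bax cells, a difference of -0.97 ± 0.21 (adjusted p = 0.0067). The beta subunit *Kcnab2* read 693 and 900.0 in NT3Bax cells, against 1681 and 1269 in Bax cells, a difference of -0.89 ± 0.22 (adjusted p = 0.0134). Both genes were dimmer in each NT3Bax array than in each Bax array. *Kcna4* was dim in TrkC+ cells, with 62.3 and 27.8 in NT3Bax mice, against 110 and 104 in Bax mice (-1.36 ± 0.38, adjusted p = 0.0275). The calls of *Kcna4*, *Kcna6* and *Kcnab2* were lost when the Bax TrkC+ replicate 1 array was left out (adjusted p = 0.112, 0.0598 and 0.109), which left 5 calls, and with only the groups compared in the fit (0.142, 0.0973 and 0.144). Without NT3Bax TrkC+ replicate 1 *Kcna6* and *Kcnab2* were not called (0.0514 and 0.107), and *Kcna4* was at -0.78 (0.197) without NT3Bax TrkC+ replicate 2 and uncalled without Bax TrkC+ replicate 2 (0.0685). The calls of *Kcnab1*, *Kcna1* and *Kcna2* were kept under each left-out array.

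The probe sets of a gene did not all move. The *Kcnab2* probe set 1425885_a_at read 259 and 219 in NT3Bax TrkC+ cells, against 243 and 204 in Bax TrkC+ cells (0.10, adjusted p = 0.807), and so ran apart from the leading *Kcnab2* probe set. The dimmest probe sets, *Kcna1* 1442413_at (9.80 to 17.2 over all 39 arrays) and *Kcna2* 1457911_at (14.5 to 28.2), differed by 0.03 and 0.19. *Kcna4* 1422255_at read 45.3 and 46.7 in NT3Bax cells, against 60.7 and 53.6 in Bax cells, a difference of -0.31. Of the 8 TrkC+ probe sets that were not called, 5 were lower and 3 higher in NT3Bax cells.

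**Figure D2:**
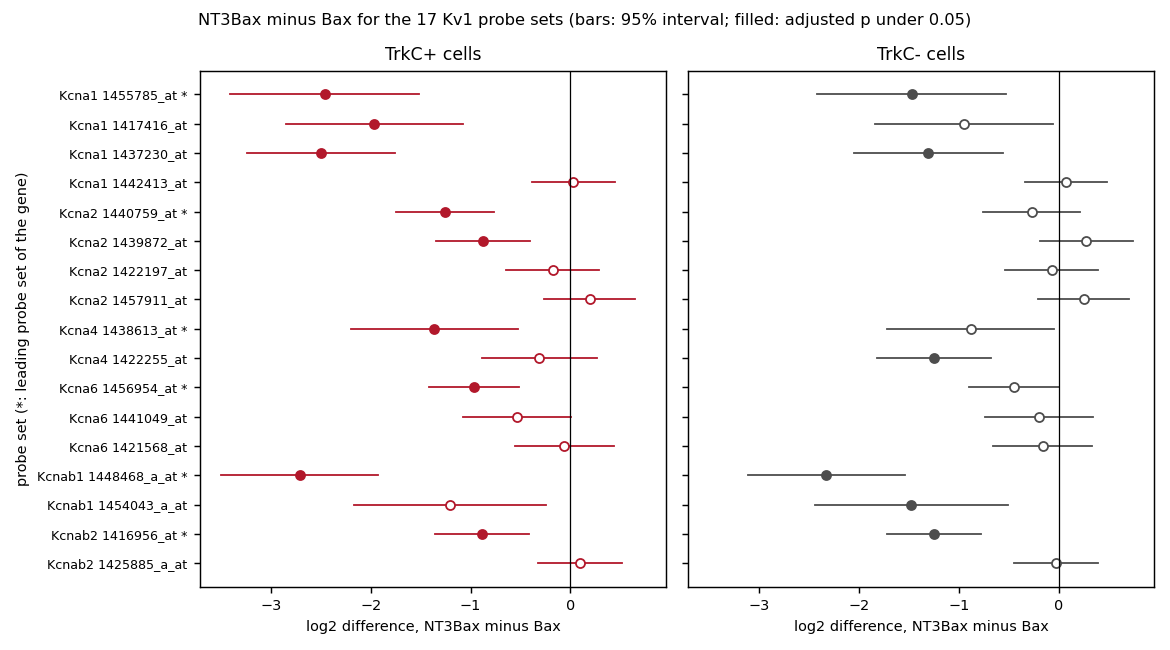
Log2 difference, NT3Bax minus Bax, of each of the 17 Kv1 probe sets in TrkC+ cells (left) and TrkC- cells (right), with bars for the 95% interval and filled points for an adjusted p under 0.05. In TrkC+ cells the leading probe set of each gene lies left of 0 and is filled, while Kcna2 lies near 0 in TrkC- cells.

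Against wild-type TrkC+ cells, which share the NT3Bax arrays with the comparison above, 9 of 17 probe sets were lower and 0 higher, with 12.7% of all probe sets called lower and 13.3% higher. *Kcna2* fell by 1.58, *Kcna6* by 0.99 and *Kcnab2* by 0.91 on the log2 scale relative to wild-type cells (the *Kcnab2* call was lost without NT3Bax TrkC+ replicate 1 or WT TrkC+ replicate 1, adjusted p = 0.0727 and 0.0768), whereas *Kcna4* overlapped (-0.53 ± 0.38, adjusted p = 0.364) and only its difference from Bax cells was called. The Bax mutation alone gave 0 limma calls among the 17 in TrkC+ cells, with a background of 0.500% and 2 of the 17 at an unadjusted p under 0.05. Those were the *Kcnab1* probe sets: the leading one read 1213 and 1184 in Bax cells, against 2379 and 2408 in wild-type cells (fold 2.00, limma adjusted p = 0.26). The replicates were close and the groups did not overlap. The leading *Kcna4* probe set averaged 107 in Bax and 60.2 in wild-type TrkC+ cells, also without overlap and without a call. Its called difference between NT3Bax and Bax cells was thus taken from Bax arrays that read above the wild-type arrays.

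Short promoter windows are shown for 4 genes whose leading probe sets fell together, so that the sequence before genes that moved alike can be compared. They are the 250 bases before an annotated start in RefSeq (GRCm38.p6), on the strand of the gene. *Kcna1* is named only, and the other 5 genes each had at least 1 window; *Kcnab1* and *Kcnab2* each have 3 annotated starts, of which 1 with a match is shown. Both strands were searched for the cyclic AMP response element TGACGTCA and its shorter core TGACG, the E-box CACGTG, the estrogen-related receptor element TNAAGGTCA and the core promoter element TATAAA. Capitals mark a match.
Kcnab1, start 2, chr3:65108764-65109013, plus strand: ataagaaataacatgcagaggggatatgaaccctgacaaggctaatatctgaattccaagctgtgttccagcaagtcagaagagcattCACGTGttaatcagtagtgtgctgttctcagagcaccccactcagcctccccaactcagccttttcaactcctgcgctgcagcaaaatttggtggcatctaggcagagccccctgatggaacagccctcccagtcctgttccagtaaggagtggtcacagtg
Kcna2, chr3:107101317-107101566, plus strand: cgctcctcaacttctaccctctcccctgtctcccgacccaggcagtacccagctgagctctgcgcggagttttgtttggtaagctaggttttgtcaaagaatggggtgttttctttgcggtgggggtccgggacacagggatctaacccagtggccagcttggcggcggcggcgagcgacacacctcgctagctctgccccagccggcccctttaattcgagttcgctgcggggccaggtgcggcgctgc
Kcna6, chr6:126740675-126740924, minus strand: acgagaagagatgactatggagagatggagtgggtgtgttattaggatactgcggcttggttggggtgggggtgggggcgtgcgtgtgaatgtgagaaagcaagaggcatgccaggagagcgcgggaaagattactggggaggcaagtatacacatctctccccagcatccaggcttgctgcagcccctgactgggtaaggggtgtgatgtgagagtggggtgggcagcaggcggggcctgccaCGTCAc
Kcnab2, start 1, chr4:152477550-152477799, minus strand: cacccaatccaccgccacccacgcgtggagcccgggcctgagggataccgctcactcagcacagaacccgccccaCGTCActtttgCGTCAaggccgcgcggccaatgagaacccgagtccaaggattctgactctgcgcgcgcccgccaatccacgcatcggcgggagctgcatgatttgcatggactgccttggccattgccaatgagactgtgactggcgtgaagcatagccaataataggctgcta
The *Kcnab1* window at start 2 holds 1 CACGTG, the *Kcna6* window 1 and the *Kcnab2* window at start 1 holds 2 copies of TGACG (read here as its complement CGTCA), and the *Kcna2* window none of the motifs. Of 32851 such windows, 6.02% hold CACGTG, 17.8% TGACG, 1.55% TGACGTCA, 1.14% TNAAGGTCA and 12.4% TATAAA. *Kcnab1* start 3 also holds 1 CACGTG, whereas *Kcnab1* start 1, *Kcnab2* starts 2 and 3 and the *Kcna4* window hold none of the motifs, so that whether *Kcna6* and *Kcnab2* share TGACG depends on the start. A match is a description of letters only.

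In TrkC- cells 6 of the 17 Kv1 probe sets were lower in NT3Bax than in Bax mice and 0 were higher, where 11.8% of all probe sets were called lower and 9.91% higher. *Kcnab1* read 296 and 254 in NT3Bax TrkC- cells, against 2248 and 840.5 in Bax TrkC- cells (-2.33 ± 0.36, 5.01-fold, adjusted p = 0.000858). *Kcnab2* read 829 and 670.1, against 1806 and 1735 in Bax cells (-1.25 ± 0.22, adjusted p = 0.00162). Neither gene overlapped between the genotypes, although the Bax arrays of *Kcnab1* lay far apart. *Kcna1* read 299 and 200 in NT3Bax TrkC- cells, against 1071 and 432 in Bax TrkC- cells (-1.47 ± 0.43, adjusted p = 0.0296). *Kcna4* 1422255_at read 45.5 and 39.2 in NT3Bax cells, against 132 and 76.4 in Bax cells (-1.25 ± 0.26, adjusted p = 0.00524). The leading *Kcna4* probe set (159 and 75.3 in NT3Bax, 214 and 190 in Bax TrkC- cells, adjusted p = 0.129) and *Kcna6* (600.3 and 745 in NT3Bax, 1073 and 776 in Bax TrkC- cells, adjusted p = 0.152) did not overlap and were not called. Bax TrkC- replicate 1 was the higher array for *Kcna1*, *Kcna4* and *Kcnab1*, and without it 2 of the 17 probe sets were called, with *Kcna1* at -0.82 (adjusted p = 0.293). *Kcna1* was also not called without NT3Bax TrkC- replicate 2 (0.155), and with only the groups compared in the fit neither *Kcna1* (0.131) nor *Kcnab1* (0.0545) was.

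Whether the NT3Bax difference depended on the sort was tested next, and *Kcna2* was called. In TrkC- cells its leading probe set read 1693 and 1464 in NT3Bax mice, against 2456 and 1467 in Bax mice, which overlapped (-0.27 ± 0.22, adjusted p = 0.454). *Kcna2* 1439872_at read 200 and 194 in NT3Bax TrkC- cells, against 174 and 152 in Bax TrkC- cells. For this probe set the NT3Bax minus Bax difference in TrkC+ cells minus that in TrkC- cells was -1.15 ± 0.30 (limma adjusted p = 0.0329), the only call among the 17 (background 5.13% lower and 4.53% higher). No Kv1 probe set was called with only the groups compared in the fit, or without Bax TrkC+ replicate 1, NT3Bax TrkC+ replicate 2 or either NT3Bax TrkC- array. For the leading *Kcna2* probe set it was -0.99 ± 0.32 (adjusted p = 0.0747), and for *Kcnab1* -0.39 ± 0.51 (95% interval -1.50 to 0.72). Taken against wild-type cells, in a test added after the data had been seen, both *Kcna2* probe sets were called (-1.28 ± 0.32 and -1.55 ± 0.30, adjusted p = 0.0222 and 0.00636), with a background of 5.71% lower and 4.71% higher, and *Kcnab1* was not (-1.60 ± 0.51, adjusted p = 0.069). The call of the leading *Kcna2* probe set was lost without any 1 of 5 arrays (NT3Bax TrkC+ replicate 1, NT3Bax TrkC- replicate 1, either WT TrkC+ array or WT TrkC- replicate 1; adjusted p = 0.0544 to 0.0943). *Kcnab1* was called under quantile normalization (0.0491), with only the groups compared in the fit (0.0402), and without either Bax TrkC- array (0.0093) or NT3Bax TrkC+ replicate 2 (0.0354). In NT3Bax mice *Kcna2* was lower in TrkC+ than in TrkC- cells without overlap, the reverse of its order in wild-type mice, and this difference within NT3Bax mice itself was not called (-0.57 ± 0.22, adjusted p = 0.0993), except under quantile normalization (0.0467) and without either Bax TrkC- array (0.0424).

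Markers of other cells moved between the same arrays. In TrkC- cells the summed intensity of 11 glial markers was 36928 to 43895 in NT3Bax mice, against 17605 to 19264 in Bax mice, with 7 called higher and 1 lower (background 9.91% higher and 11.8% lower). The 5 endothelial markers, each called higher, summed to 2152 to 2154 in NT3Bax and 276 to 404 in Bax mice, and the 6 macrophage markers, with 0 calls, to 401 to 12600 in NT3Bax and 252 to 1227 in Bax mice. The 7 nociceptor markers summed to 12592 to 25325 in NT3Bax and 33977 to 34642 in Bax mice, with 2 called lower, and the 5 proprioceptor markers to 1096 to 1424 in NT3Bax and 443 to 449 in Bax mice, with 2 called higher. NT3Bax TrkC- arrays thus read more glial, endothelial and proprioceptor signal and less nociceptor signal. Their part in the TrkC- results was not tested. In TrkC+ cells the glial sum was lower, at 4973 to 9948 in NT3Bax and 12046 to 16078 in Bax mice (5 of 11 called lower, background 9.17%), the endothelial sum was 168 to 234 in NT3Bax and 174 to 206 in Bax mice (0 of 5 called), and the macrophage sum was 153 to 161 in NT3Bax and 177 to 187 in Bax mice. The TrkC+ nociceptor sum was 12060 to 13061 in NT3Bax and 12277 to 13629 in Bax mice. Of these 7 markers 1 was called higher and 0 lower, and their median log2 difference was -0.96 (0.01 over all probe sets). The 6 cutaneous mechanoreceptor markers summed to 8235 to 8385 in NT3Bax and 7246 to 9992 in Bax mice. Of them 0 were called higher and 2 lower (background 9.05% and 9.17%), with a median of -0.85. The proprioceptor sum was 4645 to 6571 in NT3Bax and 14737 to 15898 in Bax mice. There *Pvalb* and *Runx3* were called lower and *Ntrk3*, *Esrrg* and *Whrn* were not. The part of these values in the TrkC+ results was not tested either.

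*Kcna1* and *Kcna6* also lie next to the deleted gene. In RefSeq, protein-coding genes on chromosome 6 run in the order *Ntf3*, *Kcna5*, *Kcna1*, *Kcna6*, *Ndufa9*. Of the 10 protein-coding genes on each side of *Ntf3*, 17 had a probe set, and in NT3Bax against Bax TrkC+ cells 3 of these were lower (*Cd9* by 1.65, *Kcna1* and *Kcna6*) and 0 higher, with 9.17% of all probe sets lower and 9.05% higher. In TrkC- cells 6 were lower and 3 higher, with 11.8% of all probe sets lower and 9.91% higher. *Kcna2* and *Kcnab1* lie on chromosome 3, *Kcna4* on chromosome 2 and *Kcnab2* on chromosome 4. The part of this position in the *Kcna1* and *Kcna6* results was not tested.

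Surplus muscle NT3 gave no call. In MlcNT3 against wild-type TrkC+ cells 0 of the 17 probe sets passed the limma test, with a background of 0.209% and 2 of the 17 at an unadjusted p under 0.05 (*Kcna2* 1439872_at, 0.61, and *Kcna6* 1421568_at, 0.71). *Kcna2* 1439872_at read 557 and 388 in MlcNT3 TrkC+ cells, against 323 and 289 in wild-type TrkC+ cells, without overlap. *Kcnab1* read 3489 and 2834 in MlcNT3 cells, against 2379 and 2408 in wild-type cells, again without overlap (0.39 ± 0.36, 95% interval -0.39 to 1.18). *Kcna1* read 4765 and 3908 in MlcNT3 cells, against 4025 and 4266 in wild-type cells, which overlapped (0.06 ± 0.43, 95% interval -0.89 to 1.00). Over the 4 TrkC+ groups, *Kcnab1* thus ran in the order MlcNT3, wild-type, Bax, NT3Bax, with only the step to NT3Bax called. *Kcna4* read 47.1 and 32.2 in MlcNT3 cells, against 62.0 and 58.4 in wild-type cells (-0.63 ± 0.38, adjusted p = 0.985). *Kcna6* (1518 and 1407 in MlcNT3, 1445 and 1185 in wild-type TrkC+ cells) and *Kcnab2* (1548 and 1081 in MlcNT3, 1626 and 1356 in wild-type TrkC+ cells) overlapped. In TrkC- cells the comparisons with wild-type mice gave 0 of 17 calls by limma both for MlcNT3 (background 0.00444%, 1 at an unadjusted p under 0.05) and for Bax mice (background 0.178%, 3 at an unadjusted p under 0.05), and 0 of 17 differed between the sorts in their MlcNT3 minus wild-type difference (background 0.0422%).

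The separate L5 and L1 sorts of wild-type p0 mice were independent arrays for the *Kcna1*, *Kcna2* and *Kcna4* patterns. The authors describe caudal segments as supplying distal limb muscles and more rostral ones proximal limb muscles. At L5 *Kcna1* read 5396, 5529 and 5131 in TrkC+ cells, against 1889, 1185 and 1101 in TrkC- cells (1.99 ± 0.21, 3.96-fold, adjusted p = 4.83e-05). At L1 it read 4718 and 3863 in TrkC+ cells, against 497, 561 and 727 in TrkC- cells (2.86 ± 0.23, 7.27-fold, adjusted p = 9.04e-06). The sorts were far apart at both levels. *Kcna4* ran the other way: it read 108, 95.1 and 47.4 in L5 TrkC+ cells, against 263, 283 and 387 in L5 TrkC- cells (-1.96 ± 0.27, 3.90-fold, adjusted p = 0.000368). At L1 it read 114 and 151 in TrkC+ cells, against 426, 414 and 409 in TrkC- cells (-1.67 ± 0.30, adjusted p = 0.00268). Every TrkC- array was above every TrkC+ array of its level, and the second *Kcna4* probe set was called too at both levels (-1.45 at L5 and -1.41 at L1).

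*Kcnab1* and *Kcna2* were called at L5 only. *Kcnab1* read 2965, 2559 and 2719 in L5 TrkC+ cells, against 1571, 1257 and 1133 in L5 TrkC- cells (1.07 ± 0.15, 2.10-fold, adjusted p = 0.000329). At L1 it read 2234 and 1849 in TrkC+ cells, against 1475, 1393 and 1614 in TrkC- cells (0.45 ± 0.16, adjusted p = 0.087, and 0.0457 with the filter on dim probe sets). *Kcna2* read 3403, 3255 and 3098 in L5 TrkC+ cells, against 2599, 2311 and 1857 in L5 TrkC- cells (0.54 ± 0.14, adjusted p = 0.0211, but 0.0520 to 0.0785 without L5 TrkC+ replicate 1 or 2 or L5 TrkC- replicate 3), and at L1 the difference was 0.41 ± 0.16 (adjusted p = 0.115). TrkC+ arrays were the higher ones for both genes at both levels, without overlap. In all, 7 of 17 probe sets were higher and 2 lower in TrkC+ cells at L5 (background 9.91% higher and 10.0% lower), and 3 were higher and 2 lower at L1 (background 9.03% higher and 8.92% lower). *Kcnab2* overlapped at both levels, with 95% intervals of -0.31 to 0.31 at L5 and -0.46 to 0.23 at L1. *Kcna6* was not called at either level, with 1438 to 1576 in L5 TrkC+ and 1217 to 1338 in L5 TrkC- cells (0.23 ± 0.10, adjusted p = 0.166). At L1 it averaged 1510 in TrkC+ and 1233 in TrkC- cells, without overlap. There it was called with a pseudocount of 16 (limma adjusted p = 0.0383) or the filter on dim probe sets (0.29, adjusted p = 0.0416). No Kv1 probe set differed between the levels in its sort difference (0 of 17, limma background 0.0666%, 3 at an unadjusted p under 0.05, adjusted p for *Kcnab1* 0.564), so calls at L5 only are not shown to be particular to L5.

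**Figure D3:**
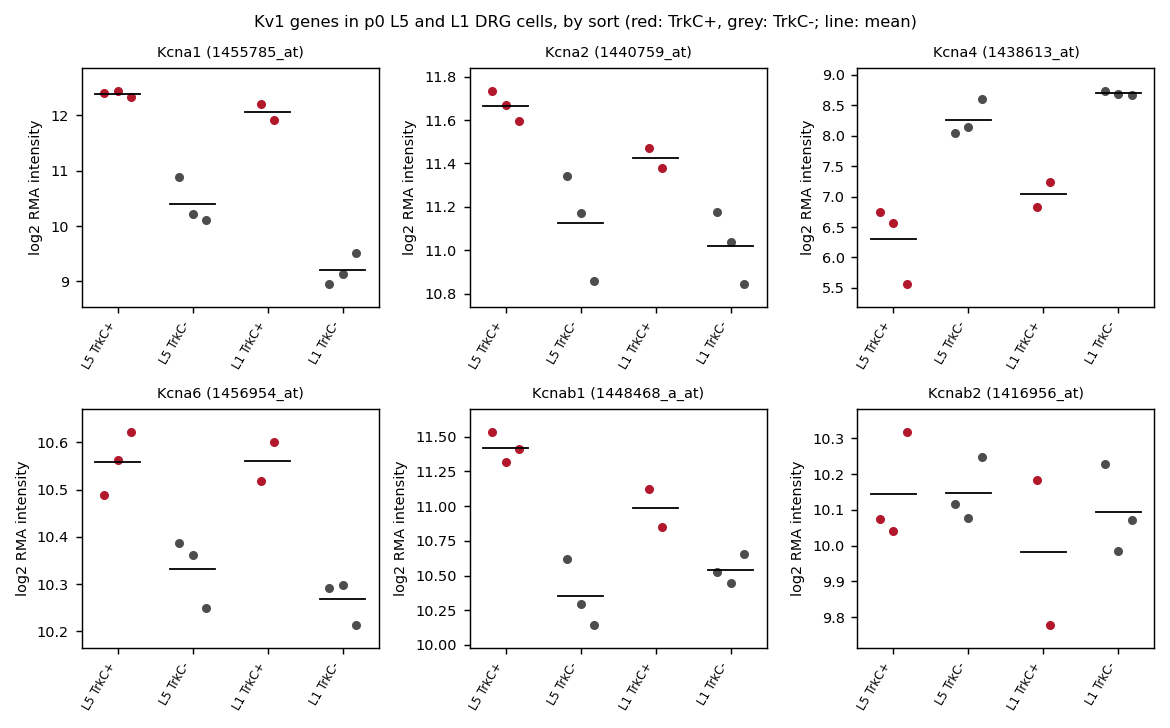
Normalized log2 intensity of the leading probe set of each Kv1 gene in wild-type p0 cells of L5 and L1, with TrkC+ (red) left of TrkC- (grey); points are arrays (3 per group, 2 for L1 TrkC+) and lines are group means. Kcna1 is higher and Kcna4 lower in TrkC+ cells at both levels, and the L5 TrkC- arrays of Kcna1 lie above its L1 TrkC- arrays.

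Between levels, 0 of 17 probe sets were called by limma in TrkC+ cells (background 0.397%, 4 at an unadjusted p under 0.05) and 1 was higher and 0 lower at L5 in TrkC- cells (background 0.138% higher and 0.0222% lower). The call was *Kcna1* 1417416_at, with 746, 477 and 469 in L5 TrkC- cells, against 218, 228 and 277 in L1 TrkC- cells (1.20 ± 0.18, 2.30-fold, limma adjusted p = 0.0295). No Kv1 probe set was called here with only the groups compared in the fit, or without any 1 of the L1 TrkC- arrays or L5 TrkC- replicate 1 or 3. The leading *Kcna1* probe set differed by 1.20 ± 0.21 (adjusted p = 0.0642), and was called with a pseudocount of 16 (0.0493) or the filter on dim probe sets (0.0437). All L5 TrkC- arrays were above all L1 TrkC- arrays for both. The 5 proprioceptor markers summed to 484 to 1158 in L5 TrkC- cells and 464 to 1530 in L1 TrkC- cells, and the 5 endothelial markers to 1072 to 1182 in L5 TrkC- cells and 554 to 916 in L1 TrkC- cells; their part in the *Kcna1* result was not tested.

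In whole adult DRG the level separated *Kcna1* and *Kcna4* in opposite directions. *Kcna4* read 302, 236 and 226 at L5 without a wheel, against 372, 416 and 424 at L1 without a wheel (-0.67 ± 0.13, 1.60-fold, adjusted p = 0.00819). With a wheel it read 252, 213 and 182 at L5, against 374, 315 and 310.4 at L1 (-0.63 ± 0.13, adjusted p = 0.00987). L5 arrays were below L1 arrays in both settings for this leading probe set. The second *Kcna4* probe set, 1422255_at, averaged 104 at L5 and 174 at L1 without a wheel and was called lower, although arrays overlapped. With a wheel it was not called (-0.40, limma adjusted p = 0.248), although its L5 arrays lay below its L1 arrays. *Kcna1* 1437230_at read 742, 611 and 702 at L5 without a wheel, against 389.7, 504 and 522 at L1 (0.55 ± 0.12, adjusted p = 0.0152). With a wheel it read 675, 775 and 706 at L5, against 433, 512 and 459 at L1 (0.62 ± 0.12, adjusted p = 0.00543). Neither this probe set nor the leading *Kcna1* probe set overlapped between levels in either setting. The leading probe set differed in the same direction but was not called (0.36, adjusted p = 0.152 without and 0.29, adjusted p = 0.256 with a wheel), except under quantile normalization (adjusted p = 0.0380 and 0.0244).

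*Kcna6* depended on the probe set. Probe set 1441049_at read 201, 191 and 297 at L5 without a wheel, against 88.6, 81.1 and 130.2 at L1 (1.20 ± 0.19, 2.30-fold, adjusted p = 0.00178). The leading probe set, 1456954_at, read 249, 283 and 242 at L5 without a wheel, against 363, 366 and 297 at L1 (-0.40 ± 0.11, adjusted p = 0.0483). That call was lost under quantile normalization (0.0709), with a pseudocount of 16 (0.0562), with only the groups compared in the fit (0.106) and without any 1 of 8 arrays (0.0584 to 0.191). The values of these *Kcna6* probe sets ran in opposite directions, so no direction for the gene can be given. With a wheel 1441049_at was called again (1.05 ± 0.19, adjusted p = 0.00328) and 1456954_at was not (-0.29 ± 0.11, adjusted p = 0.154). Probe set 1441049_at was dim at p0, at 23.9 to 61.6 in the pooled lumbar cells. *Kcna2* 1439872_at was called with a wheel alone, at 260.2, 303 and 348 at L5, against 196, 183 and 187 at L1 (0.68 ± 0.12, adjusted p = 0.00255). The leading *Kcna2* probe set, 1440759_at, was not called in either setting. With a wheel it averaged 2510 at L5 and 2313 at L1 and overlapped. Without a wheel it averaged 2402 at L5 and 2051 at L1, without overlap. In all, 2 of 17 probe sets were higher and 3 lower at L5 without a wheel (background 1.92% higher and 2.76% lower), and 3 were higher and 1 lower with a wheel (background 3.26% higher and 2.17% lower). *Kcnab1* (2506 to 3246 at L5, 3029 to 3653 at L1, without a wheel) and *Kcnab2* (951 to 1314 at L5, 1028 to 1185 at L1) overlapped. With a wheel *Kcnab1* averaged 3111 at L5 and 4156 at L1, overlapped and was not called. It was called there without L1 wheel replicate 1 (-0.58, limma adjusted p = 0.0155).

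The adult markers moved with level as well. Proprioceptor markers summed to 2515 to 3173 at L5 and 1604 to 1742 at L1 without a wheel (3 of 5 called higher, background 1.92%), and to 2894 to 3199 at L5 and 1763 to 1800 at L1 with one (4 of 5 called higher, background 3.26%). Nociceptor markers summed to 17430 to 19594 at L5 and 19341 to 22719 at L1 without a wheel (2 of 7 called lower, background 2.76%), and to 17004 to 19424 at L5 and 20337 to 25509 at L1 with one (3 of 7 called lower, background 2.17%). Their part in the level differences was not tested.

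**Figure D4:**
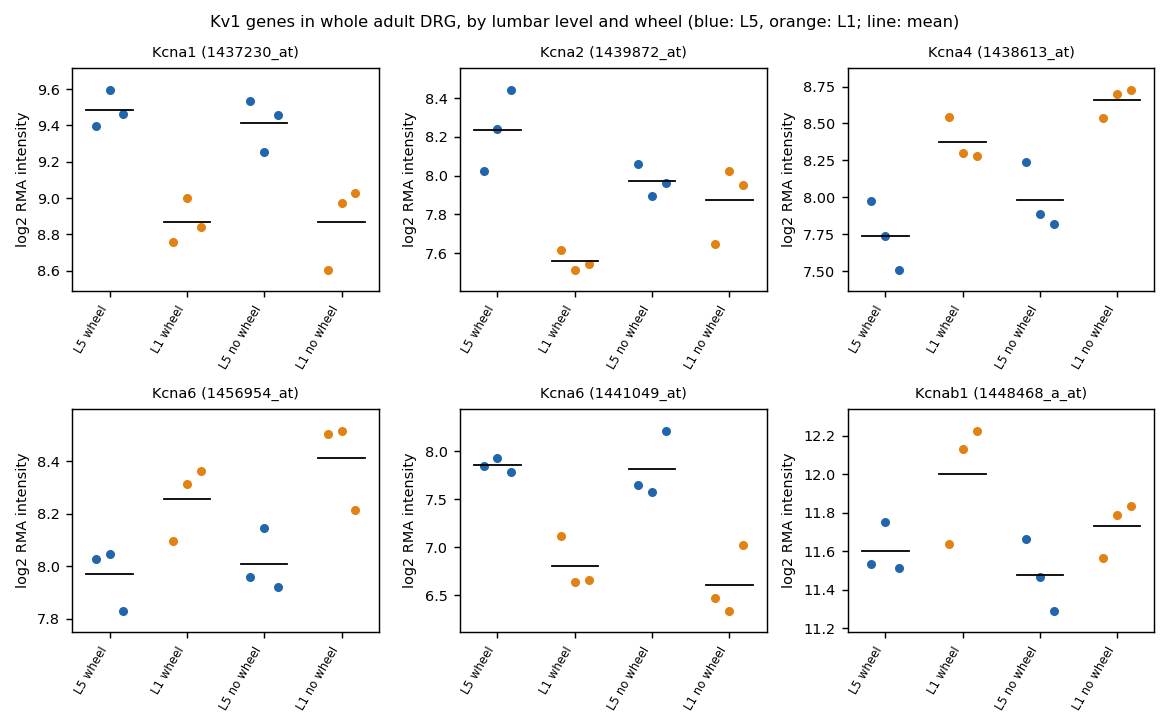
Normalized log2 intensity of 6 Kv1 probe sets in whole adult DRG, with L5 (blue) left of L1 (orange), for mice with a wheel and then without; points are arrays (3 per group) and lines are group means. The Kcna1 (1437230_at) and Kcna2 (1439872_at) panels show a probe set called between levels, because the leading one was not called. Kcna1 1437230_at and Kcna4 separate L5 from L1 in opposite directions, and the Kcna6 probe sets disagree.

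Running itself gave 0 of 17 calls, both at L5 (background 0.480%, 2 at an unadjusted p under 0.05 by limma) and at L1 (background 0.242%, 4 at an unadjusted p under 0.05). *Kcna4* read 252, 213 and 182 at L5 with a wheel, against 302, 236 and 226 without (95% interval of the log2 difference -0.52 to 0.04). The wheel difference of *Kcna2* 1439872_at was 0.26 at L5 and -0.31 at L1, and the difference between these differences was 0.58 ± 0.16 (limma adjusted p = 0.242), where 0.00% of all probe sets were called. The wheel differences of the leading probe sets of *Kcna1*, *Kcna2*, *Kcna6*, *Kcnab1* and *Kcnab2* lay between -0.15 and 0.27.

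The proteins that bind or position Kv1 channels formed a list of 13 genes, 12 of them measured. In wild-type p0 mice 8 were higher and 0 lower in TrkC+ cells (5.12% and 3.83% of all probe sets), with a median of 1.04 beside -0.07 over all probe sets. *Cntnap2*, the juxtaparanodal anchor, averaged 6271 in TrkC+ and 1241 in TrkC- cells (2.33), and *Lgi3*, a secreted protein found with Kv1 channels, 2312 in TrkC+ and 85.6 in TrkC- cells (4.75). *Dlg2*, the scaffold PSD-93, and *Lgi2* were higher by 3.22 and 2.20. In NT3Bax against Bax TrkC+ cells 0 were higher and 7 lower (9.05% and 9.17% of all probe sets), with a median of -0.97 beside 0.01. *Lgi1*, an LGI protein whose loss causes epilepsy, averaged 39.3 in NT3Bax and 575 in Bax TrkC+ cells (-3.87). *Cntn2* (-1.83), *Adam23*, the neuronal receptor of LGI proteins (-1.56), and *Lgi2* (-1.54) fell too. In TrkC- cells 3 were higher, *Lgi1* among them (1.53), and 5 lower, *Cntn2* among them (-2.16), where 9.91% of all probe sets were higher and 11.8% lower. In adult DRG 3 were higher at L5 (*Lgi3*, 0.53; *Adam23*, 0.52; *Lgi2*, 0.44) and 1 lower (*Lgi1*, -0.49) without a wheel (1.92% and 2.76% of all probe sets), and 3 were higher and 0 lower with one (3.26% and 2.17%).

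Of the other Kv1 family genes 4 of 5 were measured. In wild-type p0 mice 0 of them were higher and 2 lower in TrkC+ cells (5.12% and 3.83% of all probe sets). *Kcna5* (Kv1.5) was lower in wild-type TrkC+ cells (34.1 in TrkC+ and 219 in TrkC- cells, -2.54), and *Kcna7* (-0.63) was lower as well. *Kcna5* was also lower in TrkC+ cells at L5 (-3.65) and L1 (-2.24), and in NT3Bax against Bax TrkC- cells (-1.76). In NT3Bax against Bax TrkC+ cells 0 of the 4 were called (9.05% of all probe sets higher and 9.17% lower), with a median of -0.03. *Kcna5* differed there by -1.37 without a call (limma adjusted p = 0.0909). Among the other voltage-gated potassium channel alpha subunits 24 of 32 were measured. In wild-type TrkC+ cells 5 were higher and 4 lower (5.12% and 3.83% of all probe sets): *Kcnq3*, an M-current subunit, averaged 2002 in TrkC+ and 85.2 in TrkC- cells (4.56), while *Kcnc2* (Kv3.2) averaged 183 in TrkC+ and 1129 in TrkC- cells (-2.62). In NT3Bax against Bax TrkC+ cells 0 were higher and 10 lower (9.05% and 9.17% of all probe sets), with a median of -0.60 beside 0.01, led by *Kcnh8* (-2.99), *Kcns1*, a silent modifier subunit (-2.83), *Kcns2* (-1.94) and *Kcnd1* (-1.88). In TrkC- cells 2 were higher and 10 lower (9.91% and 11.8% of all probe sets), led by *Kcnc4* (-2.89) and *Kcnd1* (-2.62). Falls in NT3Bax TrkC+ cells were thus called in these wider lists too, and no test set one list against another.

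Over the 16 pooled p0 arrays the leading probe sets of *Kcna1*, *Kcna2*, *Kcna6* and *Kcnab1* correlated with each other at r between 0.758 (*Kcna1* with *Kcna6*) and 0.916 (*Kcna2* with *Kcnab1*). *Kcnab2* correlated with these 4 at 0.488 (*Kcna1*), 0.578 (*Kcna2*), 0.728 (*Kcna6*) and 0.795 (*Kcnab1*), and *Kcna4* with the other 5 at -0.285 to 0.422. These are descriptions across arrays that fall into genotypes and sorts. Of 18192 other genes, the 5 most alike to *Kcnab1* were *Pcsk1* (0.980), *Prkaa1* (0.974), *Ngfr* (0.971), *Polr3g* (0.971) and *Lin54* (0.971). Those most alike to *Kcna1* were *Miga2* (0.962), *St3gal6* (0.961), *Ttc39a* (0.959), *Slc29a4* (0.958) and *Car2* (0.954).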

How the data were processed

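RNA of FACS-sorted p0 DRG cells or whole adult DRG was amplified and hybridised to Affymetrix mouse arrays, and the authors normalized 39 arrays with RMA in R 2.9 (affy). The deposited values are linear RMA intensities; present and absent calls that the authors made with MAS5 did not enter the analysis. Intensities were turned into log2 values without a pseudocount, and 64 control probe sets were left out of 45101. Probe sets were named through the platform annotation (34945 with 1 gene, 932 with several, 9160 with none).

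Group means were fitted with limma 3.58.1 in R 4.3.3 in 3 separate fits (16 pooled lumbar p0 arrays, 11 p0 L5 and L1 arrays, 12 adult arrays), with Benjamini-Hochberg adjustment over 45037 probe sets and a threshold of 0.05. The scripts were tested on simulated data. Replicate numbers were not used to pair the arrays in the main fits, because the labels name no shared animal or day. No same-numbered set of 3 or more pairs correlated above 0.1 throughout. Each pooled p0 comparison has only 2 pairs, so this rule could not pair its arrays. Same-numbered deviations correlated at 0.197 in the wild-type, 0.283 in the Bax, 0.158 in the NT3Bax and 0.008 in the MlcNT3 sort. Whether those arrays are paired is therefore not settled.

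Each gene was led by its brightest probe set, and other probe sets were named where their call or direction differed. Of the 3 gene lists up to 4 called genes with the largest change were named per main comparison. The members, lists and marker genes were chosen with earlier results of these data known. Alternatives were quantile normalization, a pseudocount of 16, a filter at a mean log2 of 6, only the groups compared, a replicate block, the other probe sets, each array left out, and the methods' t-test. Amplification from few cells and the number of arrays limit the precision.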

Additional observations from a re-analysis of the deposited data

Results flagged for a closer look

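*Kcna2* was flagged because tests of whether its NT3Bax difference depended on the sort gave calls. Against Bax cells, probe set 1439872_at differed by -1.15 on the log2 scale (NT3Bax minus Bax in TrkC+ cells minus the same in TrkC- cells). It was the only call among the 17 (background 5.13% lower and 4.53% higher), and the leading *Kcna2* probe set was not called. Leaving out 1 array at a time gave 0 to 1 calls, and only the groups compared in the fit gave none. A test against wild-type cells was added after the data had been seen. There the leading *Kcna2* probe set differed by -1.28 and 1439872_at by -1.55 (2 of 17 called lower, background 5.71% lower and 4.71% higher). Both comparisons use the same NT3Bax arrays.

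Other differences were flagged because every array of one sort was higher within one genotype and lower within another, and these differences were not tested. The TrkC+ minus TrkC- difference of *Kcna2* in NT3Bax mice minus that in MlcNT3 mice was -1.27 for the leading probe set and -1.66 for 1439872_at. The same quantity was -1.57 for the leading *Kcnab1* probe set. For the dim *Kcna1* probe set 1442413_at the TrkC+ minus TrkC- difference in wild-type mice minus that in Bax mice was 0.16. Groups held 2 or 3 arrays, too few for a check of single arrays that stand apart.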

How the results depend on the processing

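With only the arrays of the groups compared in the fit, the called Kv1 probe sets among 17 numbered 9 for the wild-type sort (4 in the full fit), 1 for the Bax sort (3) and 0 for the NT3Bax sort (2), 5 for NT3Bax against Bax TrkC+ cells (9) and 1 for TrkC- cells (6), 0 for the difference between these (1), 0 for L5 against L1 p0 TrkC- cells (1) and 2 for adult L5 against L1 without a wheel (5). Under quantile normalization they numbered 4 for the NT3Bax sort and 2 for the NT3Bax minus Bax difference between sorts. With a pseudocount of 16 they numbered 2 for the p0 TrkC- levels and 3 for adult L5 against L1 without a wheel, and with the filter on dim probe sets 2 for the p0 TrkC- levels. With the replicate block they numbered 4 for the NT3Bax sort and 0 for the p0 TrkC- levels, and no other count of calls moved by over 1.5 times with the block. With the block *Kcna4* was called in the wild-type and Bax sorts (adjusted p = 0.00714 and 0.00795) and *Kcna1* in the NT3Bax sort (0.0198), and *Kcna6* was not called for adult L5 against L1 without a wheel (0.0695).

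The study used an ANOVA for its NT3Bax, MlcNT3 and adult level comparisons, so the counts here are not its own. The methods' t-test, run on every pair of groups at the study's cut-offs, gave 0 for the Bax and NT3Bax sorts. It gave 1 for the MlcNT3 sort, 3 for NT3Bax against Bax and 5 against wild-type TrkC+ cells. It gave 1 for NT3Bax against Bax TrkC- cells, 2 for the p0 TrkC- levels and 2 for adult L5 against L1 without a wheel. After Benjamini-Hochberg adjustment it gave 5 for the p0 L5 sort and 0 for the sorts of the 4 genotypes, the NT3Bax comparisons in either sort, the p0 TrkC- levels and both adult level comparisons. Where limma called 0 probe sets between a pair of groups, it gave 0 too.

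Leaving out 1 array at a time gave 2 to 7 calls for the wild-type sort, 2 to 3 for Bax, 0 to 4 for NT3Bax and 3 to 9 for MlcNT3. It gave 5 to 10 for NT3Bax against Bax and 8 to 10 against wild-type TrkC+ cells, and 2 to 7 for NT3Bax against Bax TrkC- cells. The differences between sorts gave 0 to 1 (against Bax) and 1 to 3 (against wild-type). The p0 sorts gave 5 to 5 at L1 and 7 to 10 at L5, the p0 TrkC- levels 0 to 1, and adult L5 against L1 2 to 6 without a wheel (2 without L5 no wheel replicate 3) and 4 to 5 with one. In the other comparisons the count was 0 under each left-out array. Without both NT3Bax TrkC- arrays, an alternative chosen after seeing the data, no count moved by over 1.5 times.

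The differences that reversed did so in another probe set of the gene, and in each the leading or the other probe set was called. *Kcna1* 1442413_at gave -0.11 in the Bax sort, 0.031 and 0.076 for NT3Bax minus Bax in TrkC+ and TrkC- cells, and -0.27 in the L1 sort. *Kcna4* 1422255_at gave 0.12 in the NT3Bax sort. *Kcna2* 1457911_at gave 0.19 and 0.18 for NT3Bax minus Bax and minus wild-type TrkC+ cells and 0.43 for the wild-type difference between sorts. *Kcnab2* 1425885_a_at gave 0.10 and 0.31 for the same TrkC+ comparisons, and *Kcna6* 1441049_at 1.20 and 1.05 at adult L5 minus L1 without and with a wheel. The causes were not tested.

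Crossing the replicate numbers of Bax against wild-type TrkC- arrays, whose deviations correlated at -0.109, gave 0 calls, as did the numbers as labelled. With 2 or 3 arrays per group, only differences well above the spread between arrays can be called, and dim probe sets carry little signal over background.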
